A study of Mus musculus with 20 samples.

Results

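Among 62877 regions scored by FAIRE-seq during the making of mouse neurons in culture, 734 had become relatively more open by day 10. FAIRE-seq sequences the DNA that stays free of nucleosomes after crosslinking, so that reads pile up over accessible promoters and enhancers. The 734 regions are those whose log2 enrichment, after the median of all regions was subtracted at each stage, was higher in day 10 neurons than in neuronal progenitors by at least 1, which is 2-fold. They made up 1.17% of all regions. The regions were thus chosen by their progenitor and day 10 values, so those values are a description and support no test. Regions are named here by the number in their identifier in the authors' table.

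The 3 stages were the progenitors, the neurons at day 1 and the neurons at day 10, all of the strain labelled 159.2, with no treatment named for the FAIRE libraries. Each stage had 2 FAIRE libraries, which the authors merged into 1 value per region, so that no spread between libraries is available and no test between stages was run. The labels do not say whether the 2 libraries came from separate cultures. Each value is a log2 ratio, with 16 added to the merged reads above and to the scaled reference reads below. The 16 and the reference reads were worked back from the values and are not given by the authors as a column. A single reference count shared by the 3 stages fitted the values in 62876 of the 62877 regions. The labels do not say what was sequenced for the reference. Whole reads could be worked back from the values for all 734 regions. The intervals below are exact 95% intervals, and those of read ratios cover counting error only. Intervals of shares of regions take the regions as independent, which adjacent regions may not be, so they are a description.

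The summed reads in regions were 2784875 in progenitors, 2123389 at day 1 and 1501257 at day 10. The median region held 22, 17 and 10 reads at these stages. The day 10 cultures were checked against marker genes in the RNA of their DMSO-treated controls, in which 10 of 11 matched neuron markers reached 10 normalised counts in both libraries. Tubb3, neuronal tubulin, stood at 25720 and 28109 and Snap25, a synaptic fusion protein, at 13215 and 13201, whereas Neurod2, a factor of cortical neurons, was at 3.59 and 7.19. All 7 progenitor markers and all 5 fibroblast markers also reached that level, with Nes at 415 and 437 and Col1a1 at 19339 and 17530. The progenitor markers ran from Hes5 at 44 and 41 to Vim at 6444 and 7732. The fibroblast markers ran from Dcn at 6570 and 7385 to Col3a1 at 49931 and 44801, which was above Tubb3. The level of 10 counts was also reached by 4 of 5 astrocyte and 4 of 5 oligodendrocyte lineage markers, but by none of the 4 microglia and none of the 3 pluripotency markers. Pou5f1 and Zfp42 were at 0 in both libraries. The part of these other cells in the FAIRE values was not tested, and in such bulk samples more cells of a type cannot be told apart from more accessible DNA per cell.

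Accessible chromatin is where transcription factors reach the DNA. As progenitors leave the cell cycle and become neurons, enhancers of progenitor genes close and enhancers bound by neuronal factors open, while most promoters of broadly used genes stay open throughout. Distal elements change more between cell types than promoters do. Positions and neighbouring genes of the regions were not used here, so the regions are described by their reads, width, reference depth and order in the table.

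The relatively opened regions mostly held few reads in progenitors and more at day 10, as the rule asks. In progenitors they held a median of 7 reads, with the middle of the distribution running from 4 to 10, against 22 over all regions. At day 1 the median was 11 reads against 17, and at day 10 it was 19 reads against 10. Of the 734 regions, 551 had 10 or fewer progenitor reads (75.1%), which was so for 13.9% of all regions. At day 10, 404 held 11 to 20 reads (55.0%), against 27.1% of all regions. Another 251 held 21 to 50 (34.2%), against 15.6% of all regions. The progenitor counts are thus as small as the day 10 counts of an ordinary region, and a single read weighs heavily in them.

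In rank terms most of these regions moved from the bottom of the table to its upper part, which the rule favours. The median progenitor value of the 734 stood at the 1.87th percentile of all regions and their median day 10 value at the 79.4th. The day 1 value, which the rule did not use, lay between, at the 17.6th percentile. On the centred scale the medians were -0.80, -0.36 and 0.36 at the 3 stages. A day 10 value above the stage's median was found in 705 of the 734 regions and a progenitor value below it in 724.

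**Figure D1:**
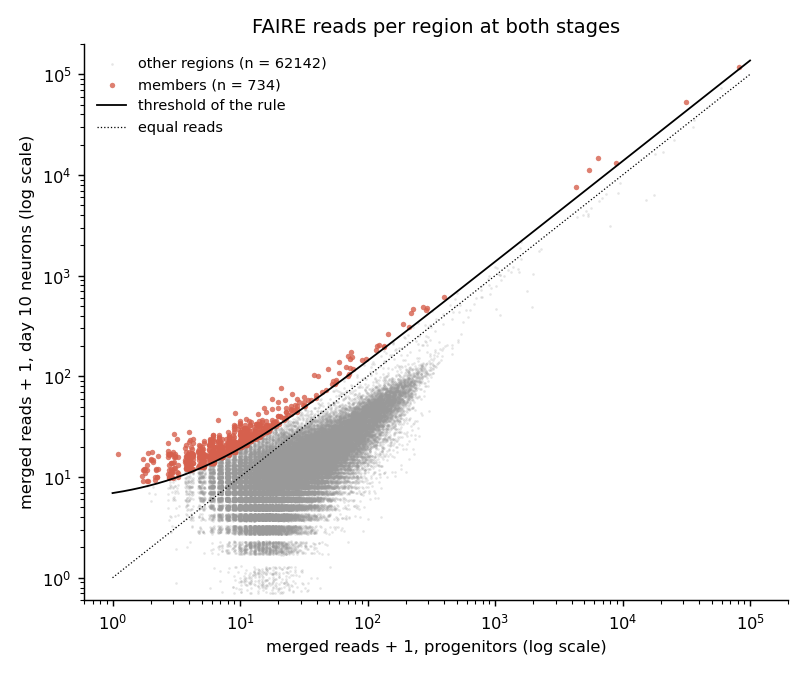
Merged FAIRE reads plus 1 of each region in progenitors (x axis, log scale) and in day 10 neurons (y axis, log scale), with points spread by up to 0.3 reads so that equal counts can be seen. The 734 relatively opened regions lie above the solid curve, which is the threshold of the rule, and most of them have 10 or fewer progenitor reads, while 6 lie far to the right with very high counts.

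The term relative matters, because the deposited values of the table as a whole fell. The summed reads in regions fell as well, from 2784875 in progenitors to 1501257 at day 10. Deposited values and uncentred differences between stages thus carry any difference in library depth, whose part in this fall was not tested. The median over all regions was 0.99 in progenitors, 0.79 at day 1 and 0.44 at day 10 on the deposited log2 scale. The relatively opened regions went the other way, from a median of 0.19 to 0.43 and then 0.81. All 734 held more reads at day 10 than in progenitors, which was so for 8.52% of all regions and is required by the rule. Without centring, 24 of them differed by at least 1, and these were the only such regions in the table (0.0382%). The median uncentred difference was 0.58, or a median of 1.13 on the centred scale.

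The typical relatively opened region stood in the upper part of the table at day 10 and not at its top, while 5 regions of very high counts, described further on, lay at about the 99.97th to 99.99th percentile. A deposited day 10 value of at least 1, which means 2-fold more reads than the scaled reference with 16 added to each, was reached by 176 of the 734 (24.0%), against 13.1% of all regions. In progenitors 10 of them had reached that value, against 49.2% of all regions. A progenitor value below 0, where the region held fewer reads than the scaled reference, was found in 151 of them (20.6%) but in only 0.41% of all regions. Of the 258 regions with such a value in the whole table, 58.5% were relatively opened ones. At day 10 none of the 734 was below 0, while 4.53% of all regions were.

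**Figure D2:**
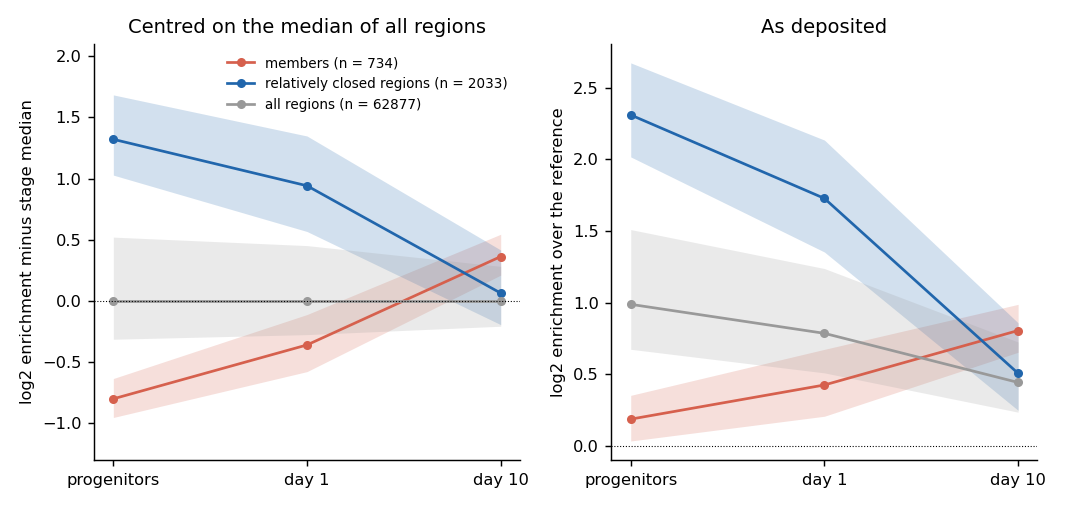
Median log2 enrichment (points and lines) with the 25th to 75th percentile of regions (bands) at the 3 stages, centred on the median of all regions on the left and as deposited on the right. The relatively opened regions rise from 0.19 to 0.81 as deposited, while the median of all regions falls from 0.99 to 0.44 and that of the relatively closed regions from 2.31 to 0.51.

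The 10 regions with the largest difference show how the values are built. Region 62545 led, with 20 reads in progenitors, 32 at day 1 and 75 at day 10, a centred log2 difference of 1.88. Region 5519, 257 bp wide, held 8, 28 and 42 reads and had a difference of 1.82. Region 24131 held 6, 21 and 36 reads (1.79). In these 3 regions the reads rose at both steps. Region 26594 held 2 reads in progenitors, 8 at day 1 and 26 at day 10 (1.77). Region 4901 held 3, 5 and 27 (1.72), and region 40973 held 2, 7 and 23 (1.66). Each of the last 3 rests on 2 or 3 progenitor reads, and the interval of the ratio of day 10 to progenitor reads, relative to the median of all regions, ran from 4.75 to 165 for region 26594. Regions 62794 (17, 47 and 59 reads, difference 1.73), 62872 (37, 75 and 102, 1.70) and 62547 (74, 87 and 174, 1.62) had higher counts and narrower intervals. For region 62872 the divided ratio was 4.02 (2.74 to 6.03). Region 62016 was of another kind, with 6424 reads in progenitors, 2469 at day 1 and 14642 at day 10 (1.73), and is taken up with its neighbours further on.

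Counting error was wide for the group as a whole. The ratio of day 10 to progenitor reads, divided by 0.685 as above, had an interval wholly above 1 in all 734 regions. This was so in 2.72% of all regions. The interval lay wholly above 2 in 166 of the 734 (22.6%), against 0.264% of all regions. Without the division by 0.685 it lay wholly above 1 in 483 (65.8%), against 0.8% of all regions. The same reads chose the regions, so nothing is read from these 3 shares.

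Of the 5 regions just inside the threshold, 56072 held 19 progenitor and 32 day 10 reads (difference 1.0006) and 43212 held 27 and 43 (1.0013). Region 5398 held 16 and 28 reads, and regions 23184 and 27800 each held 8 and 17 (1.0043 in all 3). The 5 regions just outside, 4583, 17701, 24116, 24370 and 53316, each held 11 and 21 reads, and their difference was 0.99945. One more day 10 read would have placed any of these 5 inside.

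At day 1 most of the relatively opened regions stood between their progenitor and day 10 levels. This was so on the centred scale in 669 of the 734 (91.1%), against 18.4% of all regions, and a rule that asks for a low progenitor and a high day 10 value makes such an order likely. The day 1 position, which is the share of the centred change reached at day 1, had a median of 0.374. In 247 of the 734 (33.7%) it was above 0.5. Over all regions the median was also 0.374 and 43.5% were above 0.5, but these figures are not comparable. The change over all regions had a median of -0.06 and includes falls and values near 0, so that their position ran from -1488.6 to 1219.5. A rise of at least 2-fold between progenitors and day 1 was found in 28 of the 734 (3.81%), against 0.248% of all regions. A rise of at least 2-fold between day 1 and day 10 was found in 150 (20.4%), against 0.464% of all regions. The remaining 556 (75.7%) reached 2-fold at neither step alone, against 99.3% of all regions. Each of these differences shares a stage with the rule, so a higher share of 2-fold rises than in all regions was built in. In raw reads, 449 of the regions rose at both steps (61.2%), which was so for 2.1% of all regions.

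Few regions had opened fully by day 1. The largest day 1 rise was in region 41442, with 10 reads in progenitors, 43 at day 1 and 32 at day 10. Region 56878, at the smallest width of the table (153 bp), held 9, 39 and 19 reads, and region 49272 held 14, 50 and 30. Region 41707 held 12, 42 and 24 reads and region 42475 held 1, 19 and 9. All 5 held more reads at day 1 than at day 10. On the centred scale region 41442 was level at both neuronal stages (day 10 minus day 1 of 0.04), and the other 4 were among the 9 of the 734 regions (1.23%) whose day 1 value exceeded that at day 10, which was so for 55.6% of all regions. The high day 10 value that the rule asks for keeps this count low.

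At the other end, 56 regions (7.63%) were lower at day 1 than in progenitors on the centred scale, against 51.8% of all regions. The 5 with the largest fall all came from 1 stretch of consecutive identifiers with very high counts. Region 62022 held 4302 reads in progenitors, 1075 at day 1 and 7568 at day 10. Region 62013 held 31523, 10154 and 52719 reads, and region 62021 held 8920, 2891 and 13174. All of them dipped at day 1 and rose above the progenitor level at day 10.

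**Figure D3:**
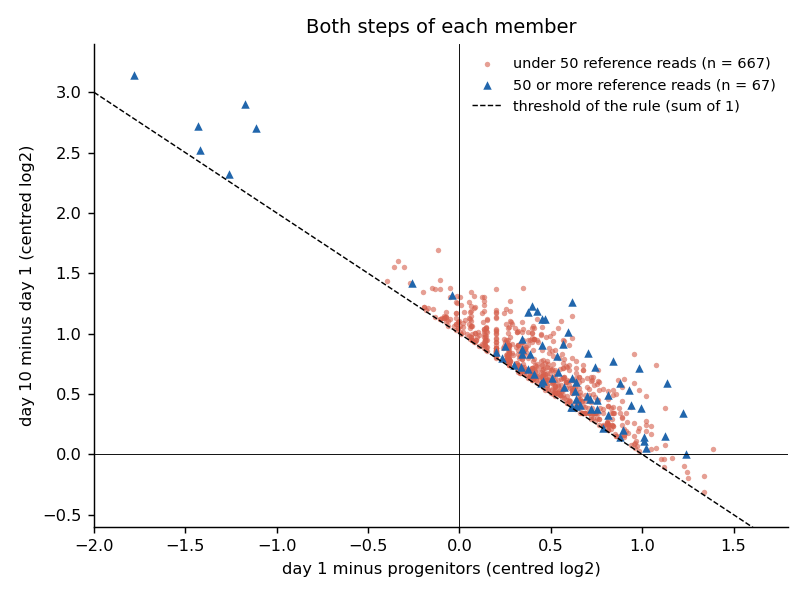
Centred log2 change of each of the 734 regions from progenitors to day 1 (x axis) and from day 1 to day 10 (y axis), with triangles for the 67 regions that hold 50 or more reference reads and circles for the other 667. The dashed line is the threshold of the rule, and the 6 triangles at the upper left fell by 1.11 to 1.78 at day 1 before they rose.

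That stretch, the longest run of consecutive identifiers with at least 1000 reference reads each, went from 62013 to 62024 and held 12 regions, of which 6 were relatively opened. The 12 regions had 1173 to 32515 reference reads, against a median of 10 over all regions. They took 11.2% of all reads in regions in progenitors, 5.33% at day 1 and 26.6% at day 10. In each of the 12, the centred value fell between progenitors and day 1, by 1.05 to 1.78 on the log2 scale. The difference between day 10 and progenitors ran from 0.17 to 1.73, so that the regions outside the rule moved the same way. The 6 relatively opened regions included the 5 with the highest day 10 values of the whole group, led by region 62017, which was also the widest (1804 bp). It held 82554 reads in progenitors, 29907 at day 1 and 118089 at day 10, a deposited enrichment of 3.06, 1.59 and 3.57. With counts this high the interval of its read ratio divided by 0.685 was narrow, 2.09 (2.07 to 2.11). With merged values, whether both libraries of a stage carried these reads was not tested.

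These 6 regions set any sum over the group. The 734 regions together held 5.35% of the reads in progenitors, 2.98% at day 1 and 15.9% at day 10. After the 39 regions with at least 1000 reference reads were left out of the table, among them all 6, the other 728 held 0.425%, 0.822% and 2.29%. The dip at day 1 in the sum was therefore absent without them, and the medians per region (0.374 for the day 1 position, 0.376 without them) hardly moved.

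Reference depth was uneven in the group. It cancels in the difference the rule uses but is not independent of the rule, because deeper regions also held more reads at the stages. Regions of at least 50 reference reads held a median of 125 progenitor reads and the others 22, and the 16 added reads shrink differences more at low counts. Of the 734 regions, 67 had at least 50 reference reads (9.13%), against 0.841% of all regions. Read the other way, 67 of the 529 regions of that depth were relatively opened (12.7%, 9.95 to 15.8), against 667 of 62347 shallower ones (1.07%, 0.991 to 1.15). At 80 or more reference reads it was 51 of 261 (19.5%, 14.9 to 24.9), while 1 of those 261 was relatively closed. The cut at 50 was chosen after the values were seen. These intervals take regions as independent, although many of the 67 lay near each other at the end of the table. The 67 deep regions held a median of 56 reads in progenitors, 75 at day 1 and 102 at day 10, and the 667 others 6, 10 and 18. Their median width was 339 bp against 199 bp. The deep regions also made up 14 of the 24 with an uncentred difference of at least 1.

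**Figure D4:**
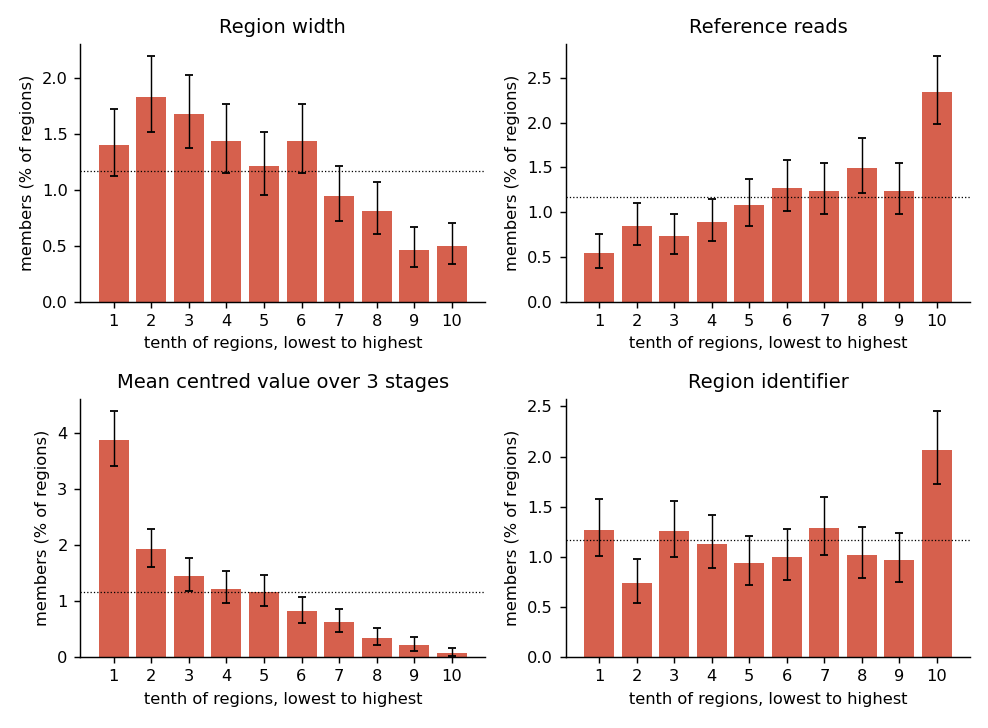
Share of regions that were relatively opened (bars, with exact 95% binomial intervals) in 10 equal bins of all regions by width, reference reads, mean centred value over the 3 stages and identifier, with the share over all regions (1.17%) as a dotted line. The share is highest among narrow regions, at the greatest reference depth, at the lowest mean values and at the last identifiers.

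The group was also uneven along the table. Among the last 500 regions 61 were relatively opened (12.2%, 9.46 to 15.4), against 673 of the 62377 before them (1.08%, 0.999 to 1.16). This split was made after the values were seen. It overlaps with reference depth. Of the 67 relatively opened regions with at least 50 reference reads, 40 were among the last 500 (59.7%), against 21 of the 667 others (3.15%). When relatively opened regions at most 10 identifiers apart were linked, 7 stretches of at least 5 such regions were found, which together held 87 of the 734. The 2 longest lay at the end of the table. From 62494 to 62561, 28 of 68 regions were relatively opened (41.2%), and from 62785 to 62877, 31 of 93 were (33.3%). The fourth in order, from 62013 to 62026, took in the 12 deep regions. The other 4 held 5 or 6 relatively opened regions each, from 43203 to 43216, 43269 to 43276, 46767 to 46787 and 62241 to 62251. None of the regions in the 7 stretches was relatively closed. The median reference reads over all regions of a stretch were 9 in the one from 46767 and 30 to 5091.5 in the other 6, against 10 outside the stretches. The median centred difference over all regions of a stretch was 0.11 in the one from 46767 and 0.57 to 1.20 in the others, against -0.07 outside the stretches. Since relatively opened regions set the ends of the stretches, these shares and medians are a description. Whether the order of the identifiers follows the genome is not stated in the labels.

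Relatively opened regions next to each other were counted as well. Of the 734 regions, 89 had a relatively opened neighbour (12.1%). This was so for 41 of the 61 among the last 500 regions (67.2%) and for 48 of the other 673 (7.13%). The share of all regions with a relatively opened neighbour was not counted, so these shares are a description. For comparison, 15.4% of the relatively closed regions had a relatively closed neighbour. Closed regions made up 3.23% of the table and opened ones 1.17%, so by share alone a closed region meets a like neighbour more often. All 7 runs of 3 or more relatively opened regions lay among the last 500. The longest run was of 6, from 62545 to 62550. Its regions held 12 to 398 reads in progenitors and 33 to 607 at day 10, and differences ran from 1.13 to 1.88. The next, from 62812 to 62816, held 5 regions with 48 to 290 and 84 to 481 reads.

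**Figure D5:**
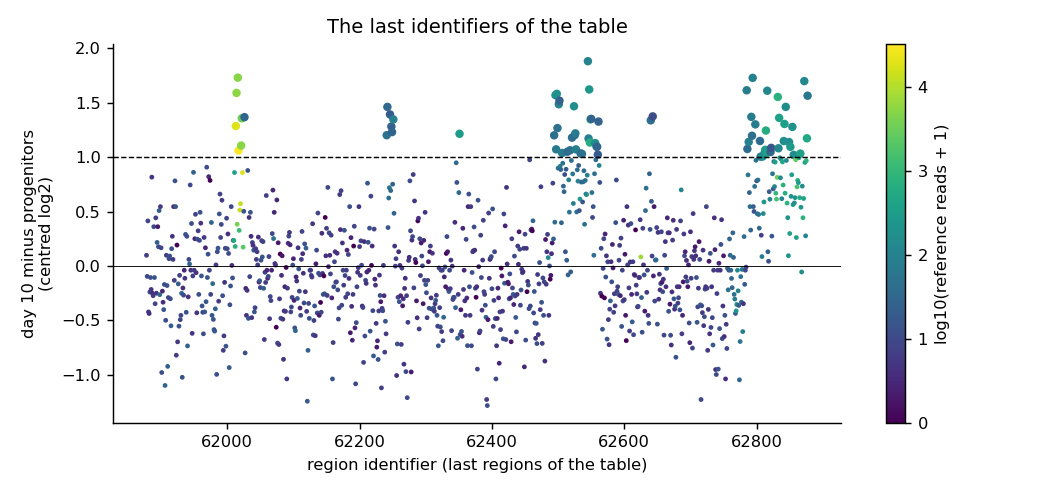
Centred log2 difference between day 10 and progenitors (y axis) for the last 1000 identifiers, 61878 to 62877, in order (x axis), coloured by the log10 of reference reads plus 1, with large points for relatively opened regions and the threshold of 1 dashed. The points above the line gather in a few stretches that also have many reference reads, among them the 12 regions from 62013 to 62024.

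Width was another property that the rule did not use. With the rule as reported, the relatively opened regions were narrow, with a median of 203 bp against 233 bp over all regions. Of the 734, 474 (64.6%) were at or below the table's median width. In 10 equal bins by width the share of relatively opened regions was highest, 1.83%, among those of 156 to 172 bp and was 0.493% among those of 467 bp or more. The direction depended on the processing. The median width passed 233 bp without centring (261), with reads scaled to their sums (245), at a threshold of 1.5 (249) and with 64 reads added (305). It stayed below with centring on the mean (200), 1 or 4 reads added (194 and 188) and a threshold of 0.5 (192). The widest relatively opened regions were deep ones. After 62017 came 62814 (1099 bp, with 290, 391 and 481 reads), 62013 (1037 bp), 62524 (888 bp, with 71, 123 and 149 reads) and 43210 (882 bp, with 72, 48 and 119 reads).

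The 2033 regions relatively closed by day 10 (a centred difference of -1 or less, 3.23% of all regions) differed from the opened ones. Their median width was 449 bp, and 1.52% of them were at or below the table's median width. They held a median of 89 reads in progenitors, 54 at day 1 and 14 at day 10, so their counts were higher at the stage where they were open. The rule built in part of this, because with the added reads only a region of many progenitor reads can fall that far. The fewest progenitor reads in a closed region were 31, while opened regions held as few as 0 in progenitors and 8 at day 10. The part of the rule in the contrasts of width and progenitor value was not tested. All 2033 had a deposited progenitor value of at least 1, and their day 10 median on the deposited scale (0.51) was below that of the relatively opened regions (0.81). The day 1 position had a median of 0.317 in the closed regions and 0.374 in the opened ones. Of the closed regions 1.23% had at least 50 reference reads, against 9.13% of the opened ones. The mean level over the 3 stages separated them too, although it holds the values that the rule used. Of 10 equal bins by this level, the lowest held 244 relatively opened and 0 relatively closed regions, and the highest held 4 and 732.

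Outside the dense stretches, the bulk of the group had small counts. The 647 relatively opened regions outside the 7 stretches held a median of 6 reads in progenitors, 10 at day 1 and 18 at day 10, with a median of 12 reference reads. The best covered of those with under 50 reference reads was region 60081, chosen after its values were seen, with 33, 43 and 58 reads over 579 bp and a deposited enrichment of 1.09, 1.36 and 1.68. No region in the table differed by 2 or more on the centred scale, and 35 differed by at least 1.5.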

How the data were processed

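FAIRE-seq libraries of 3 stages (2 each) were analysed from a table of 62877 regions that the authors deposited as log2 merged enrichment, 1 value per region and stage with both libraries merged, beside an identifier and a width in bp. Per the submitters' processing notes the build was mm9 and the tools TopHat, Bowtie, HTSeq and DESeq. Neither their roles and versions nor the peak caller and depth scaling are stated there or in the labels. Ratios between columns were ratios of whole numbers, and reads were recovered for 62876 regions. The tolerance was 1e-06, widened in proportion to the reference reads in deep regions. Of these regions, 4 had more than 1 solution in the range searched, and the smallest was taken. A region solved at lower reference counts was not searched at the highest ones. Each column was centred on its median, and differences of at least 1 were counted. No test was run. The recovery and the rule were tested on simulated data. Marker genes were read from the RNA table, a signal per gene and library, deposited as normalised counts of reads, in the DMSO libraries only. Of the neuron markers, Map2 was not matched. The H3K27ac tables were not used here. The regions and lists were chosen with earlier results of these data known. Named regions were the 10 largest differences, the 5 highest day 10 values, the 5 largest and 5 smallest day 1 changes, the 5 widest and the 5 on either side of the threshold. Alternatives were the centring, pseudocount, read minimum, threshold and width. Intervals are Clopper-Pearson, and python 3.11.15 with scipy 1.17.1 was used.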

Additional observations from a re-analysis of the deposited data

How the results depend on the processing

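No paired analysis was possible because the deposited columns merge both libraries of a stage, and for the same reason no library could be left out. The number of regions moved with the reads added to each count (16 in the deposited values), with the centring and with the threshold. With 1 or 4 reads added, all 734 regions were kept and made up 9.75% and 14.7% of those selected, and with 64 added 5 were kept. The cause of the other moves was not tested.

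As reported, the rule gave 734 regions, 3.81% risen 2-fold by day 1, 20.4% risen 2-fold after it, a median centred day 1 value of -0.36, a median day 1 position of 0.374 and a median width of 203 bp. It selected 1.51% of the regions at or below the median width and 3.88% of the lowest of 10 equal bins by mean value. The summed reads of the selected regions, as a share of all reads, were 2.98 times higher at day 10 than in progenitors, the read ratio below. Median width and the 10 bins were taken anew among the regions that each setting kept. Values that moved past their interval, or a count by over 1.5 times, follow. Adding 1 read gave 7529 regions, 27.2% risen 2-fold by day 1, 44.2% risen 2-fold after it, a day 1 value of -0.57 and a day 1 position of 0.399. It also gave a width of 194 bp, 17.2% of the narrower regions, 26.9% of the lowest bin and a read ratio of 2.44. Adding 4 reads gave 5000 regions, 21.6% risen 2-fold by day 1, 35.3% risen 2-fold after it, a day 1 value of -0.50 and a day 1 position of 0.413. It also gave a width of 188 bp, 12% of the narrower regions, 21.2% of the lowest bin and a read ratio of 2.73. Adding 64 reads, where the day 1 value changed sign, gave 5 regions, 0% risen 2-fold by day 1, 60% risen 2-fold after it, a day 1 value of 0.059 and a day 1 position of -0.913. It also gave a width of 305 bp, 0.00318% of the narrower regions, 0% of the lowest bin and a read ratio of 3.84. No centring gave 24 regions, a day 1 value of -0.44, a day 1 position of 0.314, a width of 261 bp and 0.0191% of the narrower regions. It also gave 0.111% of the lowest bin and a read ratio of 4.1. Centring on the mean gave 1105 regions, 2.34% of the narrower regions and 5.26% of the lowest bin. Scaling to the summed reads gave 411 regions, 26% risen 2-fold after it, a day 1 value of -0.27, a day 1 position of 0.335 and a width of 245 bp. It also gave 0.549% of the narrower regions, 1.07% of the lowest bin and a read ratio of 2.75. A threshold of 0.5 gave 6757 regions, 1.29% risen 2-fold by day 1, 3.94% risen 2-fold after it, a day 1 value of -0.26 and a day 1 position of 0.431. It also gave a width of 192 bp, 15.7% of the narrower regions, 26.4% of the lowest bin and a read ratio of 2.47. A threshold of 1.5 gave 35 regions, 14.3% risen 2-fold by day 1, 54.3% risen 2-fold after it, a width of 249 bp and 0.0381% of the narrower regions. It also gave 0.175% of the lowest bin and a read ratio of 4.12. A threshold of 2 gave 0 regions and therefore no other value. Requiring 30 reads over the 3 stages gave a day 1 value of -0.26, a width of 235 bp, 1.33% of the narrower regions and a read ratio of 2.96. Regions wider than the median gave 260 regions, 6.54% risen 2-fold by day 1, a day 1 value of -0.13, a day 1 position of 0.405 and a width of 280 bp. It also gave 1.08% of the narrower among these wide regions and a read ratio of 2.87. Chosen after seeing the data, the table without regions of at least 50 reference reads gave 667 regions and a read ratio of 6.68, and without those of at least 1000 a read ratio of 5.38. The other values stayed within their intervals in these settings, as did all 9 without the last 500 regions, also chosen after seeing the data. Depth limits single regions, since 551 of the 734 rest on 10 or fewer progenitor reads.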
